A study of Mus musculus with 4 samples.

Results

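Death receptors are cell-surface proteins of the tumour necrosis factor (TNF) receptor family that can start apoptosis from outside the cell. The genes described here are 10 members of that system in mouse fetal liver cells, chosen by name from the 22011 genes of the deposited tables, and all 10 were found. They are the receptors Tnfrsf10b, Fas, Tnfrsf1a, Tnfrsf1b and Eda2r, the ligand Tnfsf10 (TRAIL), and the intracellular genes Fadd, Ripk1, Casp8 and Cflar. The 4 RNA-seq libraries are 2 with the genotype label hnRNP L -/- (KO) and 2 of wild type (WT), all from fetal liver cells, and they were made to compare transcripts between the genotypes. Fetal liver is the main blood-forming organ before birth, and hnRNP L binds RNA and takes part in the choice of splice sites. The mouse strains that the labels name include C57BL/6, an LckCre transgenic, a membrane tdTomato and EGFP reporter and CD45.1, but no strain is tied to a library, and neither the way the knockout was made nor the embryonic age is stated in them.

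A ligand draws death receptors together at the membrane, and their death domains recruit the adaptor FADD, which binds caspase-8. Caspase-8 molecules brought together this way activate each other, and cFLIP, the product of Cflar, takes their place in the complex and limits the activation. TNF receptor 1 instead first recruits the kinase RIPK1, which can pass a survival signal through NF-kB. Tnfrsf10b, Fas and Eda2r are known targets of the tumour suppressor p53.

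Mapped reads numbered 97490949 and 96260423 in the KO libraries and 70020061 and 111324295 in the WT libraries. Values in CPM are counts per 1000000 of TMM-scaled library size. The targeted gene Hnrnpl was at 280 and 269 CPM in KO and at 460 and 603 CPM in WT. About 0.516 of the WT level thus remained (edgeR adjusted p = 0.0114). KO replicate 2 had 336 reads of Xist and 2839 of the Y-linked Ddx3y, while KO replicate 1 and both WT libraries had 31498 to 51618 and 5 to 14. No source says which litters the libraries came from, so a p-value here covers the spread among 4 libraries, part of which may be technical. No other gene in the tables overlapped any of the 10.

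The sequences shown first are the stretches that the results below refer to. The promoters are the 250 bases before the annotated start of the receptor that rose furthest and of Fas, from RefSeq on GRCm38.p6, with TATAAA in capitals. Eda2r lies on the minus strand (chrX:97377210-97377459) and Fas on the plus strand (chr19:34290409-34290658).
Eda2r promoter: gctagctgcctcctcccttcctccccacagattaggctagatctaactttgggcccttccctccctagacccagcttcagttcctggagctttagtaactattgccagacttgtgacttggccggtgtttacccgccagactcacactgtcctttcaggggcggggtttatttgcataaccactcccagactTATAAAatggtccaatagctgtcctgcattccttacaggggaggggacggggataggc
Fas promoter: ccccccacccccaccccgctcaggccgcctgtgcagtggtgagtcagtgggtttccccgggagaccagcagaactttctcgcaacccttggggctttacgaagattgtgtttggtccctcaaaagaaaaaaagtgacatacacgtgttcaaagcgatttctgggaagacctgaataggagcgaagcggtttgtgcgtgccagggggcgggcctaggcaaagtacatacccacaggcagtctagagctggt
On both strands of this window, 0 matches to the p53 consensus decamer and 0 to the NF-kB consensus were found in these promoters. In the windows of Tnfrsf1a, Tnfrsf1b, Tnfsf10, Fadd, Ripk1, Casp8 and Cflar 0 were found as well. The Casp8 window lies before an alternative first exon whose junction had 0 reads in every library. It is not next to the start of the Casp8 transcript whose levels are given below, and that start was not searched. The Cflar window ends upstream of the start of the Cflar transcript whose levels are given below. The promoter of Tnfrsf10b was not analysed here. The search took exact matches only, so a site outside these 250 bases or with a mismatch would not have been counted. Among 32851 promoters of the same length, 7.13% held a match to the first and 3.90% to the second. TATAAA was found in the Eda2r promoter, 58 bases before the start. It was also found in the Cflar window, which is not next to the start of the Cflar transcript measured here. Of all promoters 12.4% held it.

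The exons shown are wholly coding ones whose joining was examined. Exon 6 of Fas (chr19:34318783-34318836) encodes its membrane-spanning segment, and leaving out the corresponding exon in human FAS gives a soluble receptor. Exon 7 of Tnfrsf10b (chr14:69780504-69780573) and exon 3 of Cflar (chr1:58729056-58729161) were chosen by reads on the junction that joins an exon's direct neighbours. They had more such reads than any other internal exon of the 10 genes. Reads that left out several exons at once were not counted for this. All 3 are on the plus strand, with sequence and coordinates from GENCODE M21 on GRCm38.
Fas exon 6: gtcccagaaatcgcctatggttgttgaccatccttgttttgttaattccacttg
Tnfrsf10b exon 7: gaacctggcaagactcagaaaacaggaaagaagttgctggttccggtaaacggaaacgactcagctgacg
Cflar exon 3: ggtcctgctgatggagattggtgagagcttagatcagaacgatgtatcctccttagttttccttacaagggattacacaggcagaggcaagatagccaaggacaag

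All 5 receptor genes were higher in KO, and none of the 5 ligand, adaptor and caspase genes passed the test. The threshold was an adjusted p of 0.05 in edgeR's quasi-likelihood test over 15028 genes. Over all those genes 20.8% passed it, 11.4% as higher and 9.44% as lower. All 10 genes passed the filter on low counts. Their median log2 fold change was 0.36, against 0.02 for all genes tested. Both KO libraries lay above both WT libraries for 7 of the 10 and below them for 2, against 33.5% and 31.7% of all genes. In bulk RNA, fewer cells of a type and less RNA per cell cannot be told apart.

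**Figure D1:**
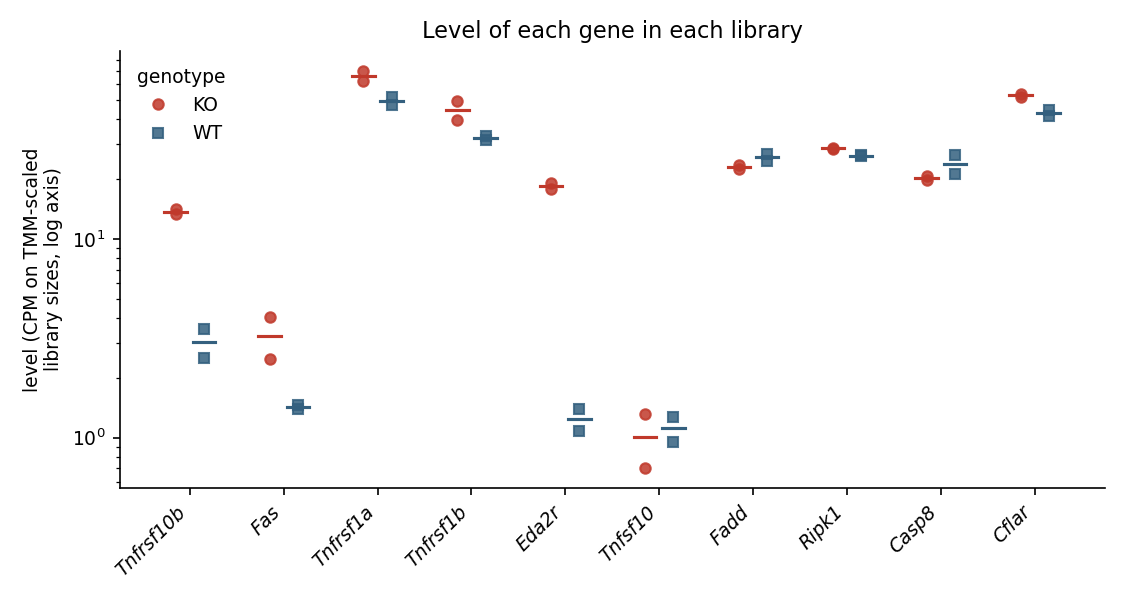
Level of each of the 10 genes in each library, in CPM on TMM-scaled library sizes on a log axis, with KO (circles) left of WT (squares) and bars at the group means. The KO points of Eda2r (17.9 and 19.1 CPM) and Tnfrsf10b (13.3 and 14.1 CPM) stand furthest from their WT points, and those of Tnfsf10 overlap them.

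Eda2r (chromosome X, 94529180 to 94572548, minus strand, in the files' own coordinates, whose build was not stated) encodes a receptor of the ectodysplasin isoform EDA-A2 and has no death domain. Its level was 19.1 and 17.9 CPM in the KO libraries and 1.08 and 1.39 CPM in the WT libraries, from 916, 919, 35 and 77 reads. The KO libraries lay close together, although the X- and Y-linked reads differed between them, and far above WT. The means were 18.5 ± 0.855 CPM in KO and 1.23 ± 0.214 CPM in WT (SD, n = 2 each), a 14.8-fold rise (log2 3.88, SE 0.20, edgeR adjusted p = 0.00075). The call held in all 11 alternative analyses, with log2 values of 3.74 to 4.09 and adjusted p of at most 0.00494.

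Tnfrsf10b (chromosome 14, 70167279 to 70184218, plus strand) encodes the death receptor of TRAIL. Its level was 14.1 and 13.3 CPM in the KO libraries and 3.53 and 2.50 CPM in the WT libraries. Here too the groups were well apart. The means of 13.7 ± 0.607 CPM in KO and 3.02 ± 0.726 CPM in WT (SD, n = 2 each) gave a 4.59-fold rise (log2 2.20, SE 0.21, edgeR adjusted p = 0.00446). The call held in all 11 alternatives, at log2 values of 1.96 to 2.45 and adjusted p of at most 0.0150.

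Fas (chromosome 19, 34365149 to 34402260, plus strand), the receptor CD95 of the Fas ligand, was at 4.03 and 2.48 CPM in the KO libraries and at 1.39 and 1.46 CPM in the WT libraries. Both KO values were above WT, but KO replicate 1 was well above KO replicate 2. The means were 3.25 ± 1.10 CPM in KO and 1.43 ± 0.0459 CPM in WT (SD, n = 2 each; log2 1.19, SE 0.32, edgeR adjusted p = 0.0397). The call was lost without KO replicate 1 (log2 0.79, edgeR adjusted p = 0.213), without WT replicate 1 (0.103), without WT replicate 2 (0.106) and with limma voom (0.0578).

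The receptors of TNF rose by less. Tnfrsf1a (chromosome 6, 125299741 to 125312501), TNF receptor 1, which carries a death domain, was at 70.4 and 62.4 CPM in KO and at 47.4 and 51.6 CPM in WT. That is a 1.34-fold rise (log2 0.42, SE 0.12, edgeR adjusted p = 0.0403), lost when any 1 library was left out (edgeR adjusted p of 0.0655 to 0.169). Tnfrsf1b (chromosome 4, 144802271 to 144836773), TNF receptor 2, which has no death domain, was at 49.3 and 39.5 CPM in KO and at 31.4 and 32.8 CPM in WT, a 1.38-fold rise (log2 0.47, SE 0.14, edgeR adjusted p = 0.0487). Its call was lost without KO replicate 1 (0.187), WT replicate 1 (0.160) or WT replicate 2 (0.125), with limma voom (0.0570), with DESeq2 size factors (0.0509) and with all transcript rows summed (0.0538). In both genes the groups did not overlap.

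The ligand gene Tnfsf10 (chromosome 3, 27215999 to 27238587) was near the lower end of what was tested, at 1.32 and 0.702 CPM in KO and 1.27 and 0.954 CPM in WT. The groups overlapped (log2 -0.13, SE 0.44, edgeR adjusted p = 0.857). With so few reads, 63 and 36 in KO and 41 and 53 in WT, a change of the size seen in TNF receptor 1 was not detectable.

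The intracellular genes lay closer to WT than the receptors. Fadd (chromosome 7, 151764228 to 151768341), the adaptor of Fas and of the TRAIL receptor, was at 23.5 and 22.4 CPM in KO and at 26.9 and 24.7 CPM in WT (log2 -0.16, SE 0.12, edgeR adjusted p = 0.373). Ripk1 (chromosome 13, 34094743 to 34127039), the kinase that joins TNF receptor 1 to NF-kB and to cell death, was at 28.4 and 28.7 CPM in KO and 26.1 and 26.4 CPM in WT (log2 0.12, SE 0.11, edgeR adjusted p = 0.476). In each of them the groups did not overlap, by a small margin, and the test was not passed.

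Casp8 and Cflar lie beside each other on chromosome 1, Cflar at 58770130 to 58815726 and Casp8 at 58852218 to 58904347, both on the plus strand. Casp8, the initiator caspase, was at 20.7 and 19.8 CPM in KO and at 21.3 and 26.5 CPM in WT (log2 -0.24, SE 0.15, edgeR adjusted p = 0.270). Cflar, its inhibitor, was at 52.0 and 53.9 CPM in KO and 44.6 and 41.8 CPM in WT (log2 0.29, SE 0.11, edgeR adjusted p = 0.0908). Neither passed, and Cflar came to an adjusted p of 0.0511 to 0.338 over the alternatives. Per length, the ratio of Cflar to Casp8 was 0.939 and 1.02 in KO and 0.785 and 0.589 in WT. All of its KO values lay above the WT values, and the ratio was set up after the levels were seen. With 2 libraries a group, an exact two-sided permutation test of a single value cannot give a p below 0.333.

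Between genes, levels can be compared only per length, as the authors' RPKM, which divides reads by transcript length and mapped reads. In both genotypes Tnfrsf1a stood first, at 15.7 ± 0.428 RPKM in KO and 11.05 ± 1.29 RPKM in WT (SD, n = 2 each). Tnfrsf1b, Fadd, Casp8, Cflar and Ripk1 followed within 3.25 to 4.61 RPKM in KO and 2.80 to 4.46 RPKM in WT. Within that group neighbours differed little. Fadd at 4.09 ± 0.100, Casp8 at 4.01 ± 0.0981 and Cflar at 3.93 ± 0.325 RPKM in KO lay within their spread, as did Casp8 at 4.46 ± 0.938 and Fadd at 4.30 ± 0.0222 RPKM in WT.

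The 3 receptors that moved furthest lay low in WT. Tnfrsf10b was at 2.20 ± 0.0290 RPKM in KO and 0.452 ± 0.0844 RPKM in WT, and Eda2r at 2.00 ± 0.0225 RPKM in KO and 0.126 ± 0.0286 RPKM in WT (SD, n = 2 each). Fas was at 1.11 ± 0.314 RPKM in KO and 0.461 ± 0.0404 RPKM in WT. Eda2r was thus above Fas in KO, and below Fas and close to Tnfsf10 in WT. Tnfrsf10b and Fas did not differ beyond their spread in WT. Tnfsf10 was last in both, at 0.103 ± 0.0389 RPKM in KO and 0.107 ± 0.0157 RPKM in WT. Eda2r exceeded 49.7% of the genes with reads in KO and 28.2% in WT, and Tnfrsf10b 51.1% in KO and 37.0% in WT.

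**Figure D2:**
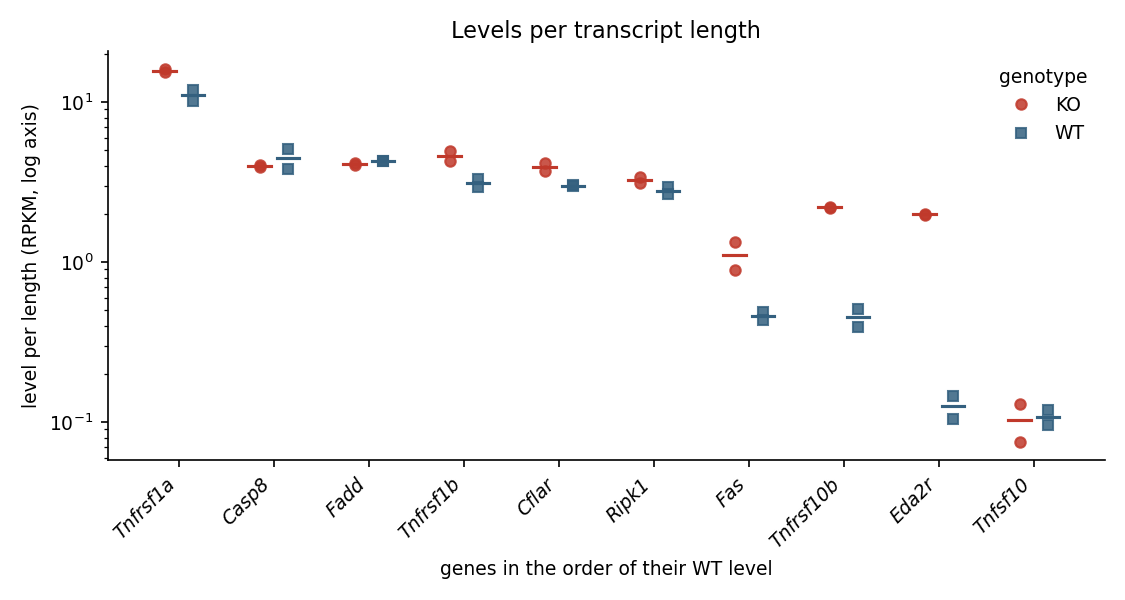
Level per transcript length (RPKM, log axis) of the 10 genes in each library, in the order of their WT means, with KO circles left of WT squares and bars at the means. Fas, Tnfrsf10b and Eda2r lie between 0.888 and 2.23 RPKM in the KO libraries and between 0.105 and 0.512 RPKM in the WT libraries.

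Several genes have more than 1 transcript row, and the reads that rows share are counted in each. For Eda2r, the other rows had 908 to 912 and 454 to 467 reads in KO, and 34 to 77 and 11 to 35 reads in WT. The known junction that sets its longest row apart, at the start of the second exon, had 0 reads in all 4 libraries. For Fas, the short row, which ends inside the second intron of the long one, had 34 and 25 reads in KO and 12 and 6 reads in WT, and its own junction had 2 reads, both in KO replicate 1. For Casp8, the junction from the alternative first exon had 0 reads in every library. For Cflar, the short row had 167 and 188 reads in KO and 83 and 164 reads in WT, beside 2491 and 2765 in KO and 1442 and 2321 in WT for the long row.

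Reads across splice junctions give a second view of the levels, from the same libraries. The tables list 75 known junctions for the 10 genes, of which 70 had a read and 57 had at least 10. Summed over known junctions, Eda2r had 64 and 85 reads in KO and 2 and 4 reads in WT. Tnfrsf10b had 68 and 79 reads in KO and 14 and 19 reads in WT. Both passed the edgeR test on junction reads, Eda2r at a log2 fold change of 4.44 (SE 0.56, adjusted p = 0.000578) and Tnfrsf10b at 1.98 (SE 0.41, adjusted p = 0.00900). They were the only 2 of the 8 genes tested to do so, against 10.6% of 11247 genes, 6.19% as higher and 4.40% as lower. Both KO libraries lay above both WT libraries for 4 of the 8, Tnfrsf10b, Fas, Tnfrsf1a and Eda2r, against 28.8% of all genes.

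For the other receptors the junction values had the sign of the transcript values without passing. Fas had 39 and 14 junction reads in KO and 6 and 13 in WT (log2 1.37, SE 0.68, edgeR adjusted p = 0.213), Tnfrsf1a a log2 value of 0.37 (SE 0.20, edgeR adjusted p = 0.249) and Tnfrsf1b one of 0.32 (SE 0.26, edgeR adjusted p = 0.477). Casp8 at -0.02, Ripk1 at 0.08 and Cflar at 0.21 were within their standard errors of 0.24 to 0.29. Without KO replicate 1 the value of Fas was 0.39, and without KO replicate 2 it was 1.95.

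**Figure D3:**
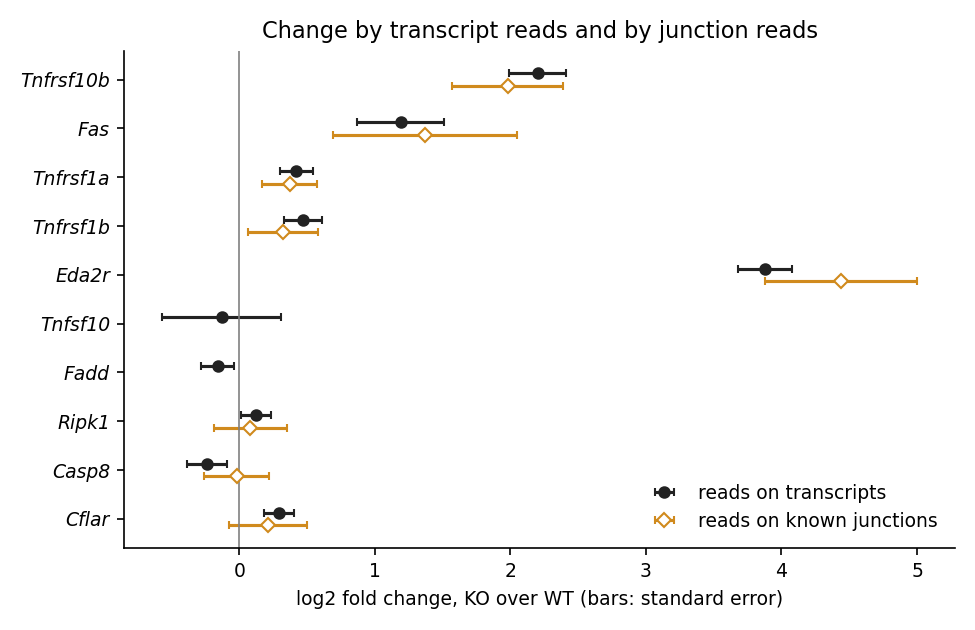
Log2 fold change of KO over WT with its standard error, from reads on transcripts (filled circles) and from reads on known junctions (open diamonds), for the genes tested. Eda2r and Tnfrsf10b lie far to the right of 0 by both measures (3.88 and 4.44, and 2.20 and 1.98), and Tnfsf10 and Fadd had too few junction reads for a test.

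Fadd and Tnfsf10 had hardly any spliced reads. The single junction of Fadd had 1 and 0 reads in KO and 1 and 4 in WT, although the transcript had 1126 and 1151 reads in KO and 868 and 1370 in WT. Reads per junction over reads per base of transcript came to 3.81 for Fadd, against a median of 31.4 over 13267 genes, and 2.31% of them were lower. For Tnfsf10 the quotient was 19.2, from 3 reads on 4 junctions, and for the other 8 genes it was 25.04 to 50.7.

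The rise of Eda2r and Tnfrsf10b was spread along the transcripts, shown here by the junctions with most reads. Of the 7 junctions of the main Eda2r transcript, the first had 14 and 32 reads in KO and 1 and 0 in WT, and the fourth 18 and 28 in KO and 0 and 3 in WT. On Tnfrsf10b, the third junction had 20 and 30 reads in KO and 4 and 7 in WT, and the sixth 24 and 21 in KO and 5 and 5 in WT. On each of these junctions of the 2 genes, neither WT library had more reads than a KO library, except on the fourth of Tnfrsf10b, with 5 and 6 reads in KO and 0 and 6 in WT.

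**Figure D4:**
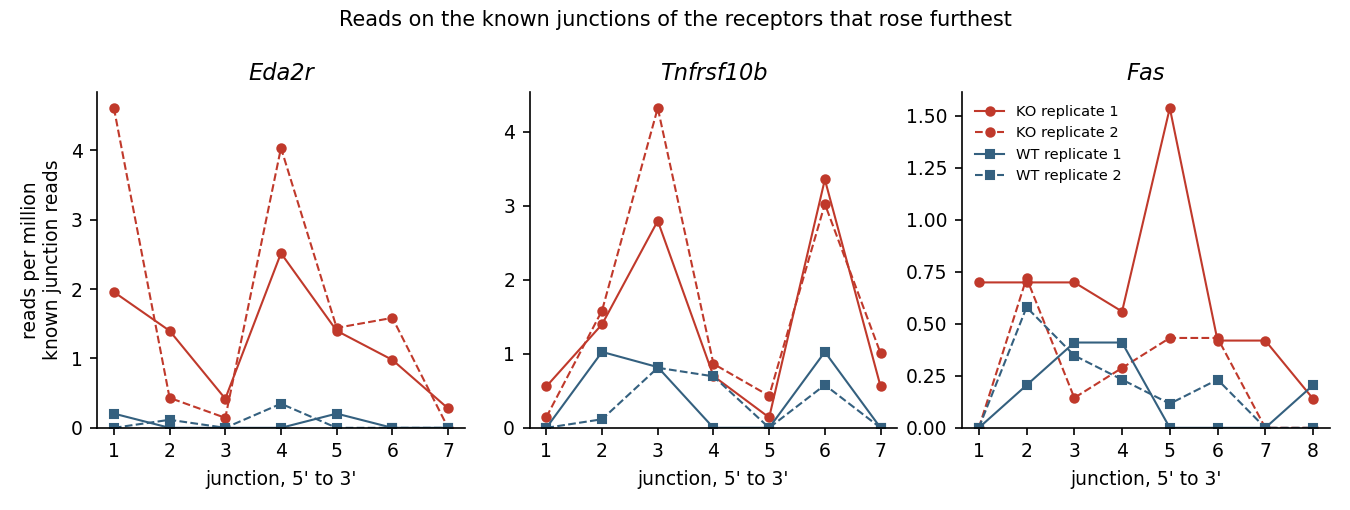
Reads on each known junction of the main transcript of Eda2r, Tnfrsf10b and Fas, scaled to the known junction reads of the library, numbered from the 5′ end, with KO in red circles and WT in blue squares. On Eda2r the WT libraries stay at or near 0 along the whole transcript, and on Fas the high point of KO replicate 1 at junction 5 comes from 11 reads.

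Splicing within the 10 genes was compared with edgeR's diffSpliceDGE, which asks whether a junction's share of the junction reads of its gene differs. Of 57 junctions tested in 8 genes, 0 passed, and 1 had an unadjusted p below 0.05. Over all genes 0.00379% of 105454 junctions passed, so few calls were made anywhere. The 1 junction was the ninth and last of Tnfrsf1a, with 49 and 36 reads in KO and 7 and 20 in WT (log2 usage 1.19, unadjusted p = 0.0341, edgeR adjusted p = 1). The last junction of Tnfrsf10b, after exon 7, had 4 and 7 reads in KO and 0 and 0 in WT (log2 usage 3.52, unadjusted p = 0.0753). In Cflar, junction 7 had 14 and 14 reads in KO and 1 and 7 in WT, while junction 8 had 6 and 7 in KO and 18 and 4 in WT, and the WT libraries went opposite ways there. Junction 5 of Fas, which leads into exon 6, had 11 and 3 reads in KO and 0 and 1 in WT (log2 usage 2.42, unadjusted p = 0.104). In Casp8, Ripk1, Tnfrsf1b and Eda2r the smallest unadjusted p of any junction was 0.252, 0.238, 0.107 and 0.271.

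Exon skipping was read from the junctions that join the neighbours of an exon. All 62 internal exons of the 10 genes had the same length in the files and in the annotation, and a skip junction was listed for each. The skip junctions of 6 exons had reads, 11 in all, 8 in KO and 3 in WT. Reads that left out several exons at once are not in these counts. The junctions flanking the 62 exons had 5913 reads, in which a junction between such exons counts for both. No skip junction had 10 or more reads. Exon 3 of Cflar was skipped by 3 and 0 reads in KO and 0 and 1 in WT, and exon 7 of Tnfrsf10b by 0 and 3 reads in KO and 0 and 0 in WT. For exon 6 of Fas, the membrane-spanning exon, 0 reads were found on the skip junction, beside 20 flanking reads in KO and 3 in WT. A count of 0 allows up to 3 reads, so skipping of this exon at a modest rate was not detectable at this depth.

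Putative junctions carried 25 reads in the 10 genes, 10 of them in Casp8, and none had 10 reads. Among the 25 were the 11 reads on the skip junctions above. The others joined exons with 2 or more annotated exons between them, so further exons were left out by single reads. Those of Casp8 had 2 and 0 reads in KO and 2 and 6 in WT. Over all 10 genes they had 7 and 4 in KO and 3 and 11 in WT, and the groups overlapped.

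Genes that act with these 10 were taken from 6 lists of 64 genes, of which 60 were tested. Of these 6 were higher and 3 lower, against 11.4% and 9.44% of all genes. Among the other receptors 2 of 7 were higher and 1 lower. Ngfr, the neurotrophin receptor p75, which has a death domain, was at 19.8 and 20.2 CPM in KO and 10.7 and 8.71 CPM in WT (2.06-fold, edgeR adjusted p = 0.00981). Tnfrsf11b, osteoprotegerin, a soluble decoy receptor, was at 15.8 and 11.8 CPM in KO and 8.70 and 8.73 CPM in WT (1.58-fold, edgeR adjusted p = 0.0437). The death receptor gene Tnfrsf25, known from T cells, fell to 0.564 and 0.429 CPM in KO, against 2.14 and 1.30 CPM in WT (edgeR adjusted p = 0.0284).

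Of the ligand genes 3 of 8 were higher and 0 lower. Tnfsf12, the ligand TWEAK, was at 7.81 and 10.2 CPM in KO and 4.86 and 4.10 CPM in WT (2.02-fold, edgeR adjusted p = 0.0189), and Tnfsf14, LIGHT, was 1.71-fold higher (edgeR adjusted p = 0.0457). The third, named after its value was seen, was Eda, whose product includes the ligand of Eda2r, at 14.6 and 13.7 CPM in KO and 9.47 and 7.92 CPM in WT (1.63-fold, edgeR adjusted p = 0.0264). Fasl, the ligand of Fas, had 10 and 19 reads in KO and 0 and 6 in WT (edgeR adjusted p = 0.149), and Tnf had 89 and 80 reads in KO and 45 and 34 in WT (edgeR adjusted p = 0.229).

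The lists nearer the caspases held few calls. Of 21 adaptor and ubiquitin ligase genes 0 passed in the edgeR fit used throughout, and at an unadjusted edgeR p below 0.05 there were 2 higher and 6 lower (median log2 fold change -0.18). With the number shared between library names as a replicate block 4 were lower, and 1 was lower with DESeq2, with no filter on low counts and without KO replicate 1. Of 6 caspase and mitochondrial genes 1 was lower, Casp9, the initiator caspase of the mitochondrial route, at 35.0 and 34.8 CPM in KO and 49.4 and 46.6 CPM in WT (0.728 of WT, edgeR adjusted p = 0.0270). Of 4 necroptosis genes 0 passed with edgeR, DESeq2 or limma voom, and 0 had an unadjusted p below 0.05. Of 14 genes of the NF-kB arm, Relb was 2.08-fold higher (edgeR adjusted p = 0.0243), and Ikbkg, the regulatory subunit of the IKK complex, was lower, at 0.776 of WT (edgeR adjusted p = 0.0493).

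Of these 9 calls, Ngfr held in all 11 alternatives (edgeR and other adjusted p of at most 0.0410). The other 8 each failed the threshold in 1 or more of the fits on 3 libraries, with adjusted p up to 0.187, and those of Casp9, Relb and Ikbkg whichever library it was. With all 4 libraries, Casp9 and Ikbkg did not pass without composition scaling, Tnfrsf11b and Tnfsf14 did not pass with limma voom, and Tnfrsf11b, Tnfsf14 and Ikbkg did not pass with all transcript rows summed.

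**Figure D5:**
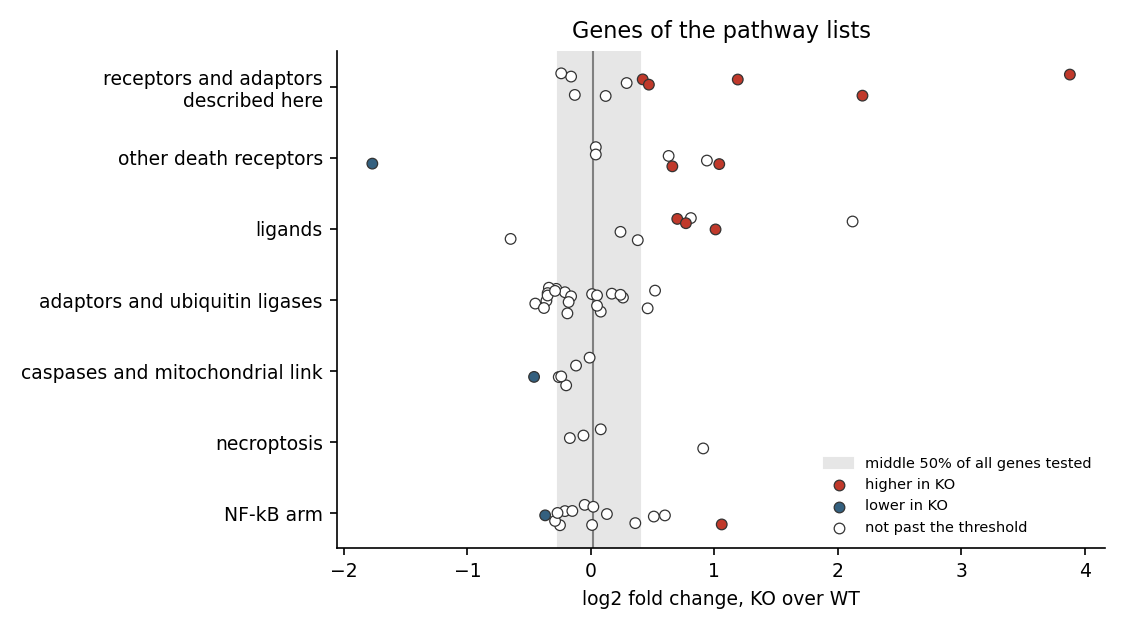
Log2 fold change of KO over WT for each tested gene of the 10 described here (top) and of the 6 pathway lists, filled where the edgeR adjusted p was below 0.05 (red higher, blue lower). The grey band is the middle 50% of all genes tested (-0.27 to 0.40), and Eda2r and Tnfrsf10b are the points furthest to the right among the calls.

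Markers of cell types moved with the genotype as well. The summed level of 8 hepatocyte markers was 63462 to 77027 CPM in KO and 36882 to 49915 CPM in WT, with 3 of 8 higher. Most of that sum was Alb and Afp. Both KO libraries lay above both WT libraries for each, but neither passed the test (edgeR adjusted p = 0.132 and 0.0883). For 6 endothelial markers the summed level was 641 to 659 CPM in KO and 420 to 462 CPM in WT, with 3 of 6 higher. For 6 granulocyte markers it was 775 to 1037 CPM in KO and 470 to 542 CPM in WT, with 3 of 6 higher, and for 5 megakaryocyte markers 816 to 1031 CPM in KO and 552 to 590 CPM in WT, with 3 of 5 higher. The 8 erythroid markers, 6 of them lower, summed to 16814 to 22607 CPM in KO and 34417 to 37955 CPM in WT. The 6 macrophage markers, 1 higher and 2 lower, summed to 151 to 194 CPM in KO and 216 to 291 CPM in WT.

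The 5 markers of T and NK cells, 2 of them tested and 0 past the threshold, summed to 2.71 to 2.76 CPM in KO and 1.58 to 2.01 CPM in WT. Most of that was Thy1, at 2.09 and 2.52 CPM in KO and 1.21 and 1.17 CPM in WT. Klrb1c, the other one tested, was at 0.543 and 0.0780 CPM in KO and 0.712 and 0.288 CPM in WT. The 5 B lymphoid markers, 3 of them lower, summed to 4.86 to 6.16 CPM in KO and 10.1 to 13.2 CPM in WT, and the 5 stellate and mesenchymal markers, 1 of them higher, to 305 to 333 CPM in KO and 279 to 311 CPM in WT. The 6 cardiac markers, all lower, summed to 3.49 to 6.01 CPM in KO and 52.0 to 257 CPM in WT. No marker was at 0 in all 4 libraries. Single markers that rose included the megakaryocyte gene Gp5 (3.16-fold) and the granulocyte genes Ltf (2.93-fold) and Mpo (2.77-fold), named after their values were seen. The part of cell types in these results was not tested.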

How the data were processed

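The members and gene lists were chosen with earlier results of these data known. RNA depleted of ribosomal RNA was cut with RNase III and sequenced from beads on 2 slides, per the labels' protocols. Which library was on which slide is not stated. Whether slide went with genotype is thus not known, and slide could not be accounted for. The authors deposited raw read counts per RefSeq transcript, which, per the file headers, took primary alignments only and set 10 as the lowest mapping quality. The deposited RPKM values and the deposited coverage signal (reads per base) are in the same tables; the RPKM values were recomputed and matched in 100% of rows. The authors also deposited raw counts of reads per splice junction. The aligner, the genome build and any use of strand in counting: not given in the sources used here.

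The transcript row with most reads stood for a gene (28283 rows, 22011 genes). Counts were tested in edgeR 4.0.16 (R 4.3.3) by quasi-likelihood, with TMM scaling, filterByExpr and Benjamini-Hochberg adjustment. Junction reads per gene were tested likewise, and junction usage with diffSpliceDGE on junctions with at least 10 reads in genes with at least 2 of them. The SE is the log2 fold change over the square root of F. The edgeR fits of gene reads, junction reads per gene and junction usage were tried on simulated data, and the other steps were not. Alternatives were DESeq2 1.42.0, limma 3.58.1 (voom), other scaling, no filter, summed rows, a block, and leaving out each library. Exons were matched to GENCODE M21 by intron length. All 10 members are named. Of the pathway lists, up to 2 called genes each way are named, and others as stated. Of 64 listed pathway symbols, 1 matched no gene.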

Additional observations from a re-analysis of the deposited data

How the results depend on the processing

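The 5 receptor calls were 3 with limma voom and 2 to 4 when 1 library was left out. Of 110 alternative values of the 10 genes, 14 lost a call and 2 changed sign: Tnfsf10 came to 0.25 without KO replicate 2 and to 0.08 without WT replicate 1, in a range of -0.65 to 0.25. By junction reads, Ripk1 came to -0.08 without KO replicate 1 (range -0.08 to 0.22 with 1 library left out), and Casp8 to 0.06 without composition scaling and to 0.20 without WT replicate 2 (range -0.21 to 0.20); none of these values passed the test. The 2 calls by junction reads stayed at 2 in the edgeR alternatives and were 0 with DESeq2, which gave no adjusted p for 3 of the 8 genes, Tnfrsf10b, Fas and Eda2r (unadjusted p = 0.000183, 0.0987 and 9.49e-09). The 9 pathway calls were 2 to 3 when 1 library was left out. All calls numbered 3130, and 1022 to 2492 when 1 library was left out (1022 without KO replicate 2, 1105 without WT replicate 2, 1616 without WT replicate 1). Calls of junction usage over all genes numbered 4, and 2 with known junctions only and 1 to 5 when 1 library was left out; in the 10 genes they were 0 throughout. Without composition scaling the median of all genes moved to 0.11, and 71.4% of calls were higher, against 54.7% with it; the 5 receptors passed there too. Where a genotype kept 1 library, that library is assumed to vary like the other group. The cause was not tested for these changes.

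The deposited names of 1 KO and 1 WT library share a number, which no label explains. With it as a replicate block, 14 pathway genes, 5 of the 10 genes and 4341 genes in all passed; the deviations of libraries that share a number correlated at 0.136 across genes. Depth limits the values of Tnfsf10, of the junctions of Fas and Fadd, and of exon skipping.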
